A study of Homo sapiens with 6 samples.

Results

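The kinases that phosphorylate SR proteins were examined after silencing of NEK2 in triple-negative breast cancer (TNBC) cells. The 8 genes were taken by name, though with earlier results of these data known: SRPK1, SRPK2, CLK1, CLK2, CLK3, CLK4, DYRK1A and PRPF4B. Each had 1 row among the 74852 gene rows of the deposited table, and all 8 passed the filter on low values (an average of 10 or more normalized counts across the 6 libraries), as did 18717 rows in all. MDA-MB-231 cells, a human line of mesenchymal TNBC, received either a pooled set of siRNAs directed at NEK2 (si-NEK2, 3 libraries) or a control pool (si-CTRL, 3 libraries), and polyA-enriched RNA was sequenced. Per the sample records the cells were harvested 24 h after the second of 2 transfections. The design holds 1 cell line and 1 siRNA pool per group, so that the loss of NEK2 and any other effect of that pool cannot be told apart.

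SR proteins are splicing factors with a domain of arginine and serine repeats, and the phosphorylation of these serines sets where the proteins are in the cell and whether they can assemble with the spliceosome. SRPK kinases act mostly in the cytoplasm and add the phosphates that let SR proteins be imported into the nucleus by transportin-SR (TNPO3). CLK kinases are nuclear and release SR proteins from nuclear speckles by further phosphorylation. DYRK1A, a kinase encoded on chromosome 21, phosphorylates several splicing factors besides its targets in the cell cycle, and PRPF4B (also called PRP4K) is a kinase bound to the U4/U6.U5 tri-snRNP that phosphorylates components of this particle. NEK2 is a centrosomal kinase that has also been described in the nucleus, where SR proteins are among its substrates. The question put to these libraries was whether the transcripts of the established SR protein kinases moved when NEK2 was silenced.

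The 4 CLK genes belong to the LAMMER family of kinases, named after a motif in their catalytic domain. The coding bases of that motif are shown to let the relatedness of the 4 transcripts be seen, since reads of near-identical genes could be assigned to the wrong one. They are 30 bases of exon 11 of 13 of the GENCODE release 29 transcript with the longest coding sequence, on GRCh38, written 5′ to 3′ on the coding strand, and capitals mark bases that differ from CLK1. The windows are chr2:200854651-200854680 (minus strand) for CLK1, chr1:155264256-155264285 (minus strand) for CLK2, chr15:74628619-74628648 (plus strand) for CLK3 and chr5:178605338-178605367 (minus strand) for CLK4.
CLK1: gagcatttagcaatgatggaaaggattctt
CLK2: gagcatCtagcCatgatggaaaggatCTtG
CLK3: gagcaCCtGgTGatgatggaGaAgatCctA
CLK4: gagcaCCtGgcaatgatggaaCgAatATtA
CLK2 differed from CLK1 at 5 of the 30 bases and CLK4 at 8, yet in both all 10 codons encoded the same residues as in CLK1. CLK3 differed at 9 bases, and 8 of its 10 codons encoded the same residues. Across whole transcripts, the 8 kinases shared 0 windows of 100 bases with each other, so that no exact match of 100 bases is common to any pair of them. Between 0% (CLK1) and 4.52% (CLK3) of a kinase's windows were also found in a gene outside the family. For CLK3 these genes were EDC3 and neighbours without a gene symbol of their own on the opposite strand, and for CLK2 (0.592% of windows) the pseudogene CLK2P1.

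The libraries held between 52625492 and 87454509 assigned reads, with the smallest number in si-CTRL replicate 1. NEK2, the silenced gene, stood at 3702, 3323 and 3290 normalized counts in si-CTRL, against 284, 362 and 388 in si-NEK2, a log2 fold change of -3.32 (adjusted p = 1.86e-06, limma). Of the markers of a mesenchymal TNBC line, VIM, CD44, AXL, ZEB1, CAV1 and MSN all had si-CTRL means of at least 5146 normalized counts. The luminal and epithelial markers PGR, CDH1, EPCAM, ESRP1 and ESR1 had si-CTRL means between 0 and 8.2, while ERBB2, FOXA1 and GATA3 had means between 427 and 2822, and the leukocyte markers CD3E, CD14, LYZ and PTPRC had means of at most 12.9 in either group. Between the groups ZEB1 (log2 fold change -0.82), CD44 (-0.76) and MSN (-0.49) fell and CAV1 (0.69), FOXA1 (1.16) and ERBB2 (0.53) rose, and the part of these changes in the results on the kinases was not tested. In a principal component analysis of the tested genes the first component (61.7% of the variance) separated the groups and the second (16.2%) placed si-CTRL replicate 1 away from both other si-CTRL libraries. Si-CTRL replicate 1 was the highest si-CTRL library for 7 of the 8 kinases and the lowest for DYRK1A, whereas over all tested genes it was the highest for 40.6% and the lowest for 40.6%. Whether its lower depth had a part in this was not tested, and each comparison was also made without it.

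SRPK2 fell after NEK2 silencing and was the only kinase of the 8 called lower in the fit to all 6 libraries as deposited. PRPF4B rose, by a smaller amount and with groups that touched. The other 6 kinases, SRPK1, CLK1, CLK2, CLK3, CLK4 and DYRK1A, did not pass the test, which asked for a p-value no greater than 0.05 after Benjamini-Hochberg adjustment in a limma fit across all tested genes. Of all tested genes 21.8% were called higher and 21.3% lower by this test (with equal total scaling 2580 genes were higher and 5262 lower, in place of 4082 and 3981), so that 1 call in each direction among 8 kinases is no more than the background. By the thresholds of the study (unadjusted p no greater than 0.05 and 1.5-fold or more), 0 kinases were higher (background 8.23%) and 1, SRPK2, was lower (background 14.3%). The si-NEK2 libraries lay wholly above the si-CTRL libraries for 0 kinases (background 28.2%) and wholly below for 1, again SRPK2 (background 26.9%). The median log2 fold change of the 8 kinases was 0.000764, and that of all tested genes was 0.0119.

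**Figure D1:**
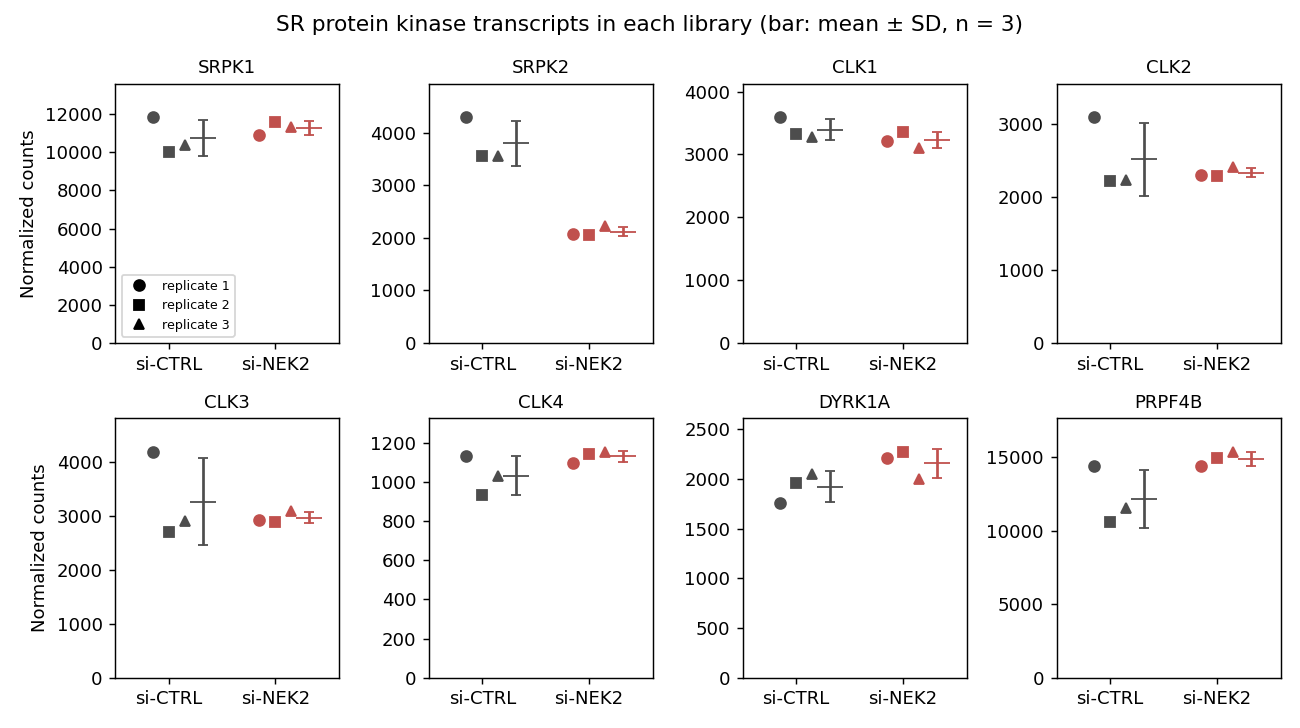
Normalized counts (y axis, from 0) of the 8 kinases in the 3 si-CTRL (grey) and 3 si-NEK2 (red) libraries. Symbols stand for replicates and bars for the mean ± SD (n = 3). The si-NEK2 points lie below all si-CTRL points for SRPK2, and si-CTRL replicate 1 stands above the other si-CTRL libraries most for CLK2 and CLK3.

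SRPK2 (GSHG0028467, chromosome 7 from 104756822 to 105029377, hg19), one of the cytoplasmic SR protein kinases, stood at 4296, 3556 and 3564 normalized counts in si-CTRL, against 2083, 2058 and 2219 in si-NEK2 (replicates are given in the order 1, 2, 3 throughout). The lowest si-CTRL library was far above the highest si-NEK2 library, and the si-NEK2 libraries were close to each other. The si-CTRL mean of 3805 ± 425 compared with a si-NEK2 mean of 2120 ± 86.7 (SD, n = 3 each), that is 55.7% of the si-CTRL level. In bulk RNA a lower level in all cells and a loss in some of them cannot be told apart. The log2 fold change was -0.84 (standard error 0.09, 95% interval -1.04 to -0.64, adjusted p = 0.000159, limma). A log2 fold change as low was found for 9.50% of the tested genes. SRPK2 passed the test in all 17 alternative analyses, with log2 fold changes between -0.97 and -0.75, and without si-CTRL replicate 1 its log2 fold change was -0.75. Of its windows of 100 bases, 0.569% also occurred in other genes.

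SRPK1 (GSHG0026557, chromosome 6 from 35800811 to 35888957), the paralog of SRPK2 that acts on SR proteins in the same compartment, stood at 11833, 10025 and 10380 normalized counts in si-CTRL, against 10898, 11617 and 11338 in si-NEK2. The 2 groups overlapped, because si-CTRL replicate 1 was the highest of the 6 libraries. The means were 10746 ± 958 and 11284 ± 362 (SD, n = 3 each), with a log2 fold change of 0.07 (95% interval -0.10 to 0.25, adjusted p = 0.47, limma), so that a change of 1.5-fold lay outside the interval. Without si-CTRL replicate 1 the si-NEK2 libraries were all above the remaining si-CTRL libraries, and the log2 fold change was 0.15 (adjusted p = 0.0288, limma). With each library scaled to an equal total the value had the other sign, -0.05, and after quantile normalization it was -0.06.

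The ratio of SRPK2 to SRPK1 within a library does not depend on the size factor of that library. It was 0.363, 0.355 and 0.343 in si-CTRL, against 0.191, 0.177 and 0.196 in si-NEK2. The groups lay far apart, and si-CTRL replicate 1 did not stand out on this measure. The mean ratio fell from 0.354 ± 0.00987 to 0.188 ± 0.00969 (SD, n = 3 each), a log2 difference of -0.91 with a two-sided exact permutation p of 0.1, which is the smallest p that 3 against 3 libraries allow. Leaving out each library in turn gave differences between -0.94 and -0.87. The ratio is of read counts that were not divided by transcript length, so that it compares libraries and not the abundance of the 2 kinases.

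**Figure D2:**
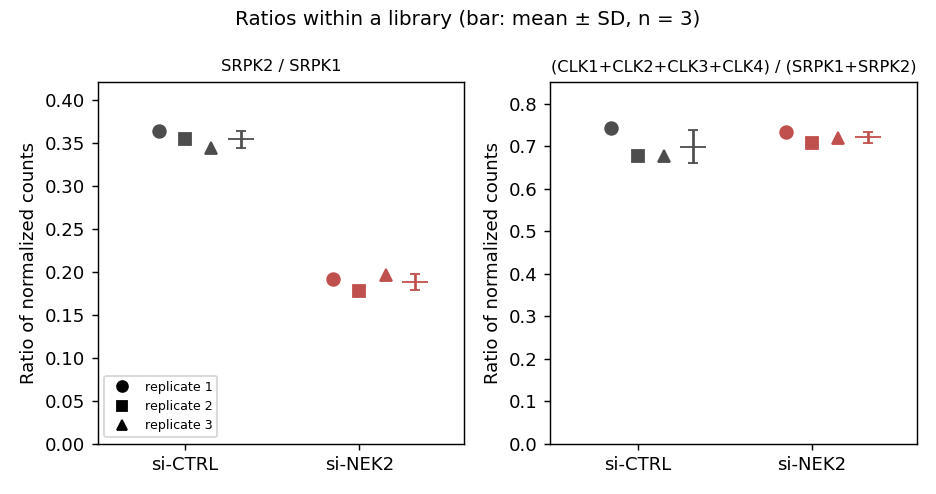
Ratio of normalized counts within each library (y axes, from 0) for SRPK2 to SRPK1 (left) and for the summed CLK transcripts to the summed SRPK transcripts (right). Symbols stand for replicates and bars for the mean ± SD (n = 3). The left ratio separates the groups, 0.354 against 0.188, while the right one overlaps between them through si-CTRL replicate 1, 0.699 against 0.721.

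Of the nuclear CLK kinases none passed the test in the fit to all 6 libraries. CLK1 (GSHG0018263, chromosome 2 from 201717732 to 201753999) stood at 3588, 3318 and 3275 normalized counts in si-CTRL, against 3218, 3355 and 3109 in si-NEK2. The groups overlapped, and the log2 fold change was -0.07 (95% interval -0.23 to 0.09, adjusted p = 0.436, limma). With libraries scaled to an equal total it was -0.20 (adjusted p = 0.0425, limma), the 1 alternative of 17 in which CLK1 passed the test.

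CLK2 (GSHG0002586, chromosome 1 from 155232660 to 155247501) stood at 3087, 2218 and 2232 normalized counts in si-CTRL, against 2301, 2292 and 2404 in si-NEK2. Si-CTRL replicate 1 was 38.7% above the mean of the other si-CTRL libraries, while the 5 remaining libraries lay between 2218 and 2404. Among these 5, the si-NEK2 libraries were all above the si-CTRL libraries. The log2 fold change was -0.09 (95% interval -0.37 to 0.19, adjusted p = 0.594, limma) and turned to 0.07 without si-CTRL replicate 1 (adjusted p = 0.339, limma). CLK2 lies inside 2 long gene rows, named SLC50A1 and SHC1. At its upper coordinate, the 5′ side of this minus-strand gene, it overlaps HCN3 by 284 bases. The log2 fold changes of these rows were 0.15, -0.26 and 0.37, and how reads in the overlap were divided is not stated.

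CLK3 (GSHG0132713, chromosome 15 from 74900712 to 74937863) had the widest spread, at 4182, 2708 and 2911 normalized counts in si-CTRL, against 2917, 2896 and 3093 in si-NEK2. Si-CTRL replicate 1 was 48.9% above the mean of the other si-CTRL libraries, a distance reached by 12.9% of the tested genes. The log2 fold change was -0.11 (95% interval -0.44 to 0.22, adjusted p = 0.572, limma), and without that library it was 0.08 (95% interval -0.05 to 0.21, adjusted p = 0.293). CLK3 overlaps EDC3, a decapping factor transcribed from the opposite strand, by 14964 bases. EDC3 rose from a mean of 2977 to 4453 normalized counts (log2 fold change 0.59, adjusted p = 0.000795, limma), and whether its reads were kept apart from those of CLK3 by strand was not tested. A row without a symbol (GSHG0132712) overlaps CLK3 by 355 bases and fell by 0.64 on the log2 scale (adjusted p = 0.0173, limma).

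CLK4 (GSHG0025318, chromosome 5 from 178029666 to 178057616) had the fewest reads of the 8, between 908 and 1339 per library, for which the counting error of the smallest is 3.32%. Its normalized counts were 1135, 936 and 1029 in si-CTRL and 1096, 1143 and 1152 in si-NEK2. The groups overlapped through si-CTRL replicate 1, and the log2 fold change was 0.13 (95% interval -0.07 to 0.34, adjusted p = 0.266, limma). Without that library it was 0.20 (adjusted p = 0.0414, limma), and the si-NEK2 libraries were all above the remaining si-CTRL libraries.

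The summed CLK transcripts stood to the summed SRPK transcripts at ratios of 0.744, 0.676 and 0.677 in si-CTRL and of 0.734, 0.708 and 0.720 in si-NEK2. The groups overlapped through si-CTRL replicate 1, while the other si-CTRL libraries lay below all si-NEK2 libraries. The means were 0.699 ± 0.0386 and 0.721 ± 0.0130 (SD, n = 3 each), a log2 difference of 0.0456 with a two-sided exact permutation p of 0.4. Without si-CTRL replicate 1 the log2 difference was 0.0909 (exact permutation p = 0.1).

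PRPF4B (GSHG0025386, chromosome 6 from 4021556 to 4065217), the tri-snRNP kinase, stood at 14369, 10564 and 11556 normalized counts in si-CTRL, against 14369, 14906 and 15334 in si-NEK2. Si-CTRL replicate 1 was level with si-NEK2 replicate 1, and the other si-CTRL libraries were well below all si-NEK2 libraries. The mean rose from 12163 ± 1974 to 14870 ± 483 (SD, n = 3 each), a fold change of 1.23 (log2 fold change 0.30, 95% interval 0.06 to 0.54, adjusted p = 0.0466, limma). A log2 fold change as high was found for 24.9% of the tested genes. The call was lost in 12 of 17 alternative analyses, edgeR among them (adjusted p = 0.0557), whereas the direction was kept in each. Without si-CTRL replicate 1 the fold change was 1.35 (log2 fold change 0.43, adjusted p = 0.000159, limma).

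DYRK1A (GSHG0019467, chromosome 21 from 38739236 to 38887679) stood at 1755, 1965 and 2056 normalized counts in si-CTRL, against 2210, 2271 and 1996 in si-NEK2. The groups overlapped through si-NEK2 replicate 3, and si-CTRL replicate 1 was the lowest library here. The means were 1925 ± 155 and 2159 ± 144 (SD, n = 3 each), with a log2 fold change of 0.17 (95% interval -0.03 to 0.36, adjusted p = 0.158, limma). DYRK1A passed the test in 0 of 17 alternatives, with log2 fold changes between 0.04 and 0.22. Without si-CTRL replicate 1, 3 of the 8 kinases (SRPK1, CLK4 and PRPF4B) were called higher and 1 (SRPK2) lower, against 26.7% and 23.2% of the tested genes in the same fit.

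**Figure D3:**
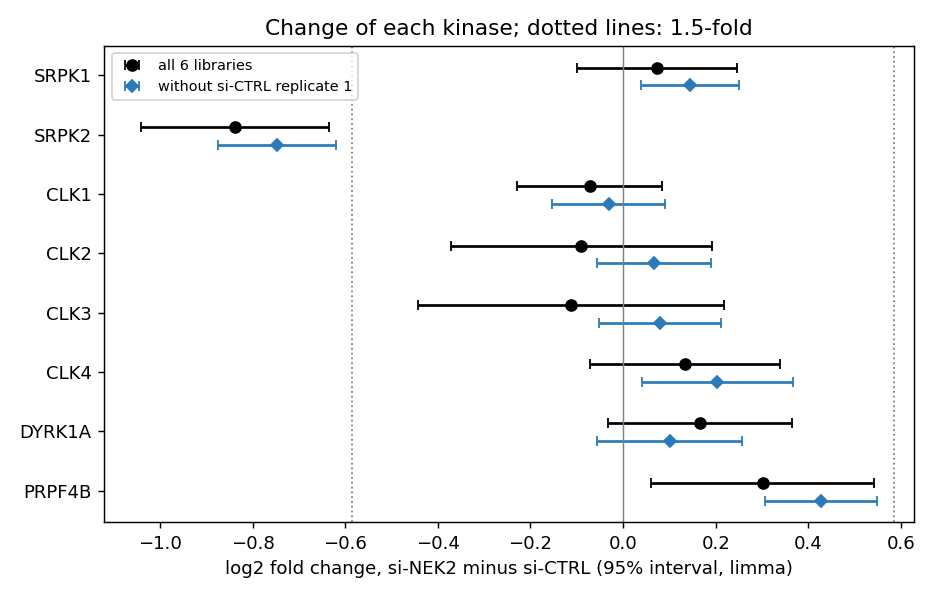
The log2 fold change of each kinase (x axis, si-NEK2 minus si-CTRL) with its 95% interval from limma, for all 6 libraries (black) and without si-CTRL replicate 1 (blue); dotted lines mark 1.5-fold. SRPK2 lies below 0 in both fits, at -0.84 and -0.75, and the values of CLK2 and CLK3 change sign between the fits.

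Levels of different kinases were compared only after division by transcript length, as normalized counts per kilobase of the union of annotated exons. In si-CTRL, SRPK1 (1606 ± 143, SD, n = 3) and PRPF4B (1548 ± 251) were the most abundant and overlapped each other. CLK2 (685 ± 136), CLK1 (656 ± 32.8) and SRPK2 (600 ± 67.0) followed, each overlapping the next. CLK3 (160 ± 39.1) and CLK4 (130 ± 12.6) also overlapped, and DYRK1A was the lowest at 72.4 ± 5.81. In si-NEK2, PRPF4B (1892 ± 61.5) stood above SRPK1 (1686 ± 54.2) with this length, an order that turned with both other lengths, and SRPK2 (334 ± 13.7) stood below CLK1 (624 ± 23.8) with no overlap.

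The order depended on the length used. In si-NEK2, SRPK1 was at 2370 and PRPF4B at 2195 per kilobase of the longest transcript, and at 2457 and 2195 per kilobase of the transcript with the longest coding sequence, with no overlap between them in either case. CLK3 has annotated exons of 20443 bases in union but 2621 bases in the transcript with the longest coding sequence, and its si-CTRL level per kilobase was 160 with the first and 1246 with the second. DYRK1A rose in the same way from 72.4 to 291. By group mean, SRPK1 and PRPF4B held the first 2 places and DYRK1A the last in both groups under each length. Per kilobase of the transcript with the longest coding sequence, however, PRPF4B and CLK1 overlapped in si-CTRL. In si-CTRL replicate 2, PRPF4B was at 1559 and CLK1 at 1638.

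**Figure D4:**
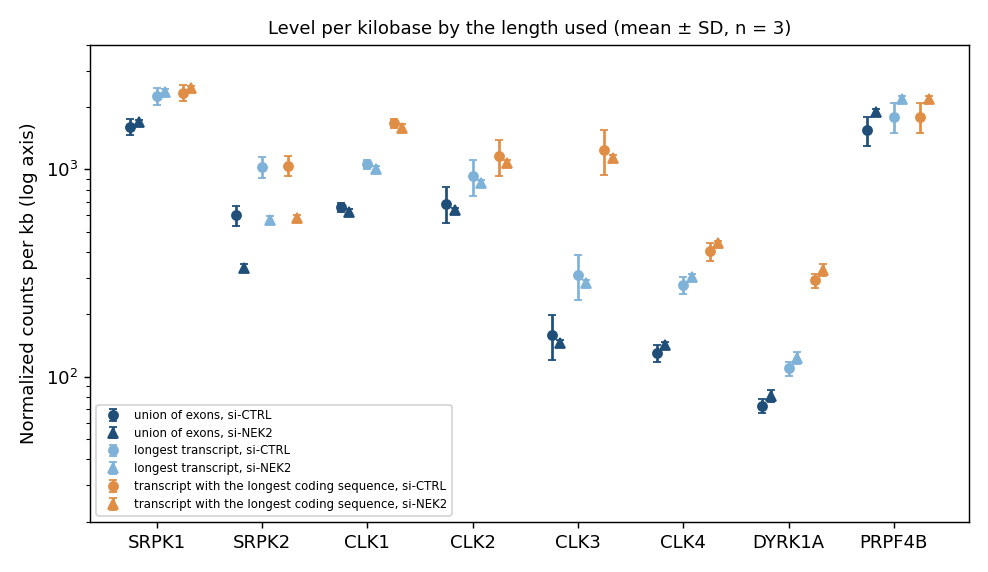
Normalized counts per kilobase (y axis, log scale) of the 8 kinases in si-CTRL (circles) and si-NEK2 (triangles), mean ± SD (n = 3), with 3 choices of transcript length shown in colour. By mean, SRPK1 and PRPF4B are highest and DYRK1A lowest under each length, while CLK3 moves from 160 to 1246 in si-CTRL.

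The tested transcripts of the SR proteins themselves, the substrates of these kinases, each had an estimated change of less than 1.5-fold. Of 13 SR protein genes tested of 14 listed, 4 rose (background 21.8%) and 0 fell (background 21.3%). The median was 0.08 on the log2 scale against 0.0119 over all tested genes. SRSF9 stood at 11423, 16005 and 15829 normalized counts in si-CTRL, against 20655, 20130 and 18050 in si-NEK2 (log2 fold change 0.46, adjusted p = 0.0181, limma). SRSF5 (0.33), SRSF3 (0.27) and TRA2A (0.21) were the other genes called. SRSF1, the prototype SR protein, had a log2 fold change of -0.13 (adjusted p = 0.116, limma). The count of 4 was 0 with equal total scaling (2580 of all 18717 tested genes called higher) and with quantile normalization (3943). It was 1 when si-NEK2 replicate 1 (3096) or 2 (2823) was left out, and 2 when si-NEK2 replicate 3 (3196) was. Without si-CTRL replicate 1 it was 5 (26.7% of all tested genes). The number called lower was 1 with equal total (5262 of all 18717), quantile (3565) or upper quartile scaling (4606). It was also 1 without si-CTRL replicate 1 (23.2% of all tested genes).

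Of 24 SR-related splicing proteins tested, 5 rose (background 21.8%) and 1 fell (background 21.3%), with a median of 0.07. SON, the scaffold of nuclear speckles, whose row also holds MIR6501, had a log2 fold change of 0.36 (adjusted p = 0.00199, limma). LUC7L3 (0.31), SCAF8 (0.30), U2AF1 (0.28, in a row shared with U2AF1L5) and LUC7L (0.25) were the other increases, and SCAF11 fell by 0.46 on the log2 scale. The number of increases was 13 without si-CTRL replicate 1, where 26.7% of all tested genes were called higher. It was 3 when any one si-NEK2 library was left out (2823 to 3196 of all 18717 tested genes called higher). With equal total scaling it was 1 (2580 of 18717).

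Genes listed with the tri-snRNP, the particle on which PRPF4B acts, rose in 5 (background 21.8%) and fell in 2 (background 21.3%) of 18 cases. The median was 0.15. USP39 (log2 fold change 0.42, adjusted p = 0.00101, limma), SART3 (0.42), SNU13 (0.38), ZMAT2 (0.35) and EFTUD2 (0.28) rose. SART1, which helps to recruit the tri-snRNP, stood at 18365, 14693 and 14110 normalized counts in si-CTRL, against 12098, 10533 and 11769 in si-NEK2 (log2 fold change -0.45, adjusted p = 0.00846, limma), and SNRNP27 also fell (-0.37). The number of increases was 12 without si-CTRL replicate 1, where 26.7% of all tested genes were called higher.

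**Figure D5:**
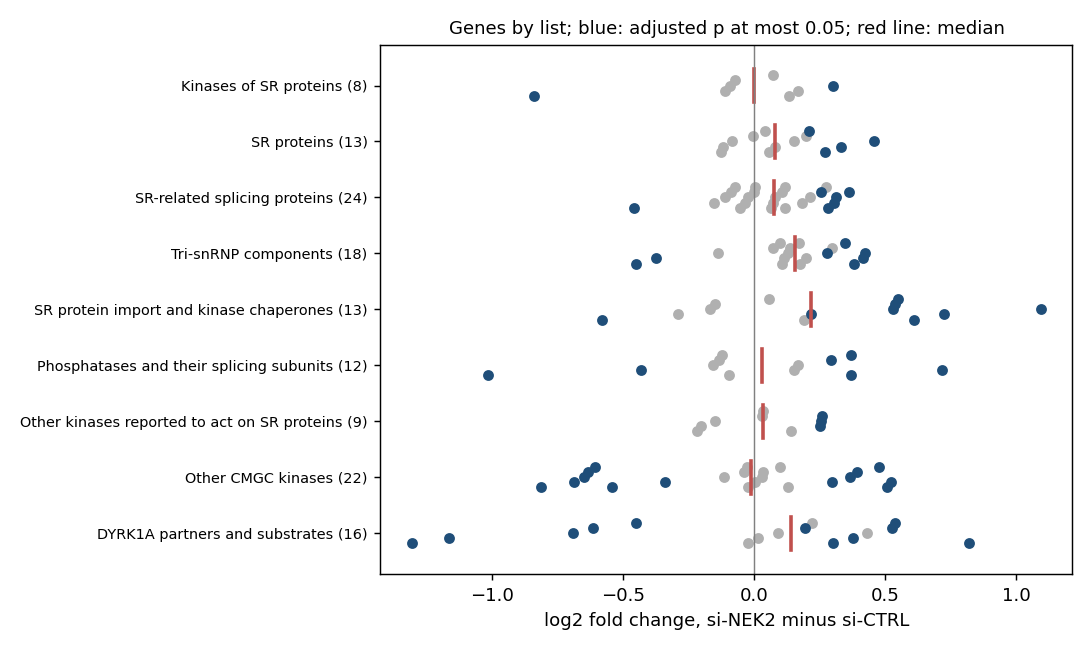
The log2 fold change (x axis, si-NEK2 minus si-CTRL) of each tested gene in the kinase set and in 8 lists (y axis, number of genes in brackets; NEK2 itself left out), in blue where the adjusted p was at most 0.05. Red lines mark medians, which are 0.08 for SR proteins and 0.22 for the import and chaperone list.

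Genes that import SR proteins or hold their kinases in complexes were called higher in 7 and lower in 1 of 13 cases (median 0.22). The background was 21.8% higher and 21.3% lower. TNPO3, the importin that carries phosphorylated SR proteins, stood at 6670, 7081 and 6540 normalized counts in si-CTRL, against 9431, 9826 and 10043 in si-NEK2. The groups were well apart, and the log2 fold change was 0.53 (adjusted p = 0.000266, limma). HSP90AA1, a chaperone of SRPKs in the cytoplasm, rose by a log2 fold change of 0.61, and HSPA1B (1.09) and HSPA1A (0.72) rose as well, though these near-identical genes may exchange reads. HSPA8, the constitutive chaperone of the same family, stood at 186896, 176949 and 189592 normalized counts in si-CTRL, against 118410, 125420 and 127104 in si-NEK2, a log2 fold change of -0.58 (adjusted p = 0.000215, limma). The number called lower was 3 with equal total scaling (5262 of all 18717 tested genes called lower) and with quantile normalization (3565).

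Among 12 genes of phosphatases and their regulatory or scaffold subunits, 4 rose (background 21.8%) and 2 fell (background 21.3%), with a median of 0.03. Of the catalytic subunits of protein phosphatase 1, the PPP1CB row fell and PPP1CC rose. PPP1CA did not pass the test (log2 fold change -0.16, adjusted p = 0.0843, limma), though its si-NEK2 libraries all lay below si-CTRL. The row of PPP1CB, shared with SPDYA, stood at 10030, 11266 and 10424 normalized counts in si-CTRL, against 4944, 5402 and 5378 in si-NEK2 (log2 fold change -1.01, adjusted p = 2.2e-05, limma). PPP1CC had 11052, 12651 and 12849 in si-CTRL and 19518, 20011 and 20464 in si-NEK2 (log2 fold change 0.72, adjusted p = 0.000124, limma). In neither did the groups overlap. PPM1G fell by 0.43 on the log2 scale, with si-CTRL replicate 1 at 27264 and the other si-CTRL libraries at 18698 and 19513. The number of decreases was 5 without si-CTRL replicate 1, where 23.2% of all tested genes were called lower. It was 1 without si-NEK2 replicate 1 (3223 of all 18717 tested genes called lower) or replicate 2 (3081). The number of increases was 2 without si-NEK2 replicate 2 (2823 called higher) and 1 with equal total scaling (2580).

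Of 10 other kinases reported to act on SR proteins, 3 rose (background 21.8%) and 1, NEK2 itself, fell (background 21.3%). The median was 0.03. The increases were of AURKA (log2 fold change 0.26), PRKACA (0.25) and AKT2 (0.25), each of less than 1.5-fold. The number of increases was 0 with equal total scaling (2580 of all 18717 tested genes called higher) and quantile normalization (3943). It was 5 without si-CTRL replicate 1 (26.7%), and 1 without si-CTRL replicate 3 (3543), si-NEK2 replicate 2 (2823) or si-NEK2 replicate 3 (3196). The number of decreases was 4 with equal total (5262 called lower) or upper quartile scaling (4606). It was 3 with quantile normalization (3565) and without si-CTRL replicate 1 (23.2%). It was 2 with edgeR (4107), with DESeq2 (4187) and without si-CTRL replicate 3 (3417).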

How the data were processed

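The 3 si-CTRL and 3 si-NEK2 libraries of polyA-enriched RNA from MDA-MB-231 cells were grouped by the sample records. Per the submitters' processing notes the tools included STAR 2.4.0, SAMtools, Picard, FastQC and DESeq2, and the build was hg19. The authors annotated genes with FAST DB. The counter and its strand setting are not given in the sources used here, so that overlapping genes may share reads. The deposited signal gives the reads of a gene after division by a size factor from DESeq2 for each library, here called normalized counts. Every value (100%) was a whole multiple of 1 read within 0.01 of a read, which returned between 52625492 and 87454509 reads per library. The sources used here do not state a batch or whether replicates were separate cultures, so that p-values measure only the spread between these libraries. Of 74852 rows, 51665 carry no symbol and 1045 several.

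Rows with a mean of at least 10 (18717) were fitted with limma 3.58.1 (R 4.3.3) on log2(value + 1), with an intensity trend and Benjamini-Hochberg adjustment over all of them. Fold changes on this scale understate the change of low genes. As alternatives, pseudocounts of 0.1 and 5 were used, the filter was dropped or raised to a mean of 50, the libraries were scaled by upper quartile, by equal totals or by quantiles, and the fit was repeated with no trend, a replicate block, each library left out, edgeR 4.0.16 and DESeq2 1.42.0 on the recovered reads, and the thresholds of the study. Scripts were tested on simulated data. Ratios were compared by exact permutation. Lengths, windows and coding bases came from GENCODE release 29 (GRCh38), and another choice of length was added after the lengths were seen. No genome coordinate was moved between builds. Floors and counting errors cover counting only.

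The kinases and the gene lists were chosen with earlier results of these data known. Named in the text are the 8 kinases, NEK2, up to 3 genes per list with the largest absolute log2 fold change among those past the test, rows overlapping a kinase, and genes with the nearest pattern; some genes that this rule or a marker list would name are not reported here. Other genes named beside a count, and SRSF1, TNPO3, PPP1CA, DYRK1B, DYRK2, DYRK3 and SRPK3, were chosen after their values were seen.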

Additional observations from a re-analysis of the deposited data

How the results depend on the processing

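SRPK2 and NEK2 passed the test in all 17 alternatives each, and leaving out each library gave log2 fold changes between -0.88 and -0.75 for SRPK2. The number of kinases called higher, 1, was 0 with eBayes without a trend, with edgeR, with equal total, quantile or upper quartile scaling, with no filter on low values and by the thresholds of the study. Leaving out each library gave between 0 and 3, with 3 without si-CTRL replicate 1 and 0 without any other. The number called lower was 2 with equal total scaling, where CLK1 reached -0.20, and 1 otherwise. PRPF4B lost its call with no trend (0.30, adjusted p = 0.112), no filter (0.30, adjusted p = 0.0683), edgeR (0.28, adjusted p = 0.0557), equal total scaling (0.17, adjusted p = 0.214), quantile normalization (0.18, adjusted p = 0.183) and upper quartile scaling (0.24, adjusted p = 0.0969), all from limma but for edgeR. Leaving out single libraries gave 0.21 to 0.43, and PRPF4B was called in 1 of these 6 fits. SRPK1 changed sign with equal total scaling (-0.0545) and quantile normalization (-0.0629), and leaving out each library gave 0.0255 to 0.145. Without si-CTRL replicate 1, CLK2 (0.0675) and CLK3 (0.0798) changed sign and SRPK1 (0.15) and CLK4 (0.20) passed the test. Over the fits with each library left out, CLK2 ran from -0.171 to 0.0675, CLK3 from -0.234 to 0.0798 and CLK4 from 0.0649 to 0.204. The causes of these changes were not tested. The normalized counts of a library summed to between 65012672 and 65933374 in si-CTRL and between 71439027 and 71995295 in si-NEK2. The median log2 fold change of all tested genes, 0.0119 as deposited, was -0.115 with equal total scaling, -0.0528 with upper quartile scaling and 0.0465 with quantile normalization. With equal total scaling SRPK1 lay above that median.

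Same-numbered libraries had correlations of their deviations from the group means of -0.09, 0.05 and -0.15. No shared replicate effect was seen, but these correlations cannot show whether the replicates were paired, which is not stated. With the replicate block, 0 kinases were higher and 1 lower, PRPF4B stayed at 0.30 (adjusted p = 0.0732, limma), and the SRPK2 to SRPK1 ratio had an exact sign-flip p of 0.25. No si-CTRL library correlated best with the si-NEK2 library of its own number. No other call on a kinase was changed by the block.

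The 3 libraries per group limit what can be called. The smallest read number of a kinase in a library, 908, limits its precision by counting alone to 3.32%. The coefficient of variation of that kinase, CLK4, was 9.65% in si-CTRL and 2.69% in si-NEK2.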

Other observations

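Other kinases of the CMGC group, to which the SRPK, CLK and DYRK families belong, moved in both directions. Of 24 genes listed, HIPK4 did not pass the filter, and CDK11A and CDK11B share a row with SLC35E2 that was counted once. Of the 22 rows tested, 6 rose (background 21.8%) and 7 fell (background 21.3%), with a median of -0.0095. DYRK4 had a log2 fold change of -0.81 and HIPK2, a kinase of stress signalling, of -0.68 (adjusted p = 0.00603 and 0.0023, limma). Among the relatives of DYRK1A, DYRK1B (0.51) and DYRK2 (0.48) rose, DYRK4 fell, and DYRK3 (-0.04, adjusted p = 0.719, limma) did not pass the test. The row of SRPK3, the muscle SRPK, is shared with PLXNB3, and stood at 1629, 1537 and 1622 normalized counts in si-CTRL, against 1140, 1040 and 919 in si-NEK2 (log2 fold change -0.63, adjusted p = 0.000821, limma), reads that cannot be assigned to either gene.

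Of 16 tested partners and substrates of DYRK1A, 6 rose (background 21.8%) and 5 fell (background 21.3%), with a median of 0.14. CCND1, the cyclin that DYRK1A marks for degradation, stood at 3657, 2853 and 2928 normalized counts in si-CTRL, against 1457, 1375 and 1365 in si-NEK2 (log2 fold change -1.16, adjusted p = 6.08e-05, limma). CDKN1B, a cell cycle inhibitor, rose by a log2 fold change of 0.82, and GLI1, a transcription factor of Hedgehog signalling, fell by 1.30 on the log2 scale. DCAF7, a scaffold that binds DYRK1A, rose by 0.54.

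The genes with the pattern over the 6 libraries nearest to that of SRPK2, out of 12100 compared by the root mean square difference of centred log2 values, were ERCC1 (0.0213), TLDC1 (0.0235) and ADIPOR1 (0.0282). ERCC1 stood at 5572, 4749 and 4753 normalized counts in si-CTRL, against 2818, 2789 and 2933 in si-NEK2. Nearest to PRPF4B were ARID2 (0.0234), BUD31 (0.0259) and SLC35C2 (0.0264).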
